A study of Mus musculus with 9 samples.

Results

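The genes described are 10 genes of the feedback around mitogen-activated protein (MAP) kinase signalling, most of which encode inhibitors: the phosphatases Dusp1, Dusp4, Dusp5 and Dusp6, the Sprouty genes Spry1, Spry2 and Spry4, the Spred genes Spred1 and Spred2, and Ier3. They were chosen by symbol, with earlier results of these data known. All 10 were found among the 17565 rows of the deposited iGenomes gene table and passed the filter on low values that left 12350 genes for testing. MS1, an immortalized endothelial line from the mouse pancreas, was sequenced as poly-A RNA in 3 groups of 3 samples, all of them stably carrying a lentiviral vector of the pCDH series. Control cells held pCDH-puro, the second group pCDH-TAZS4A (the libraries labelled TAZ4A) and the third pCDH-TAZ-CAMTA1. TAZ, encoded by Wwtr1, is a co-activator of the TEAD transcription factors that the Hippo kinases hold in check. TAZ4A lacks serines that these kinases phosphorylate, and TAZ-CAMTA1 is the fusion protein of the vascular tumour epithelioid hemangioendothelioma. The comparisons ask how each form of TAZ changes the cells against the empty vector, and how the fusion differs from the mutant. The labels do not say whether the lines are clones or pools, nor whether the 3 samples of a line were grown separately, so p-values measure a spread that may be technical.

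Growth factor receptors switch on Ras, which passes the signal through the kinases RAF, MEK and ERK. ERK then induces genes that damp the same route. Dual-specificity phosphatases remove the activating phosphates from ERK and, for some of them, from its relatives JNK and p38. Sprouty and Spred proteins act further upstream, between the receptor, Ras and RAF. Because several of these genes are read as a measure of ERK output, their RNA levels are often read as a group, yet RNA does not measure phosphorylated ERK, which was not analysed here.

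The recovered reads assigned to genes ranged from 21966004 to 34224715 per library, and 3 reads, the most that a count of 0 leaves room for, are worth 0.0878 to 0.139 CPM (counting error only). Camta1 was higher in the TAZ-CAMTA1 libraries (12.5 to 13.5 CPM) than in control (3.41 to 5.11 CPM). Wwtr1 was lower, not higher, in the second group, at 319, 320 and 335 CPM in the TAZ4A-labelled libraries and 545, 536 and 570 CPM in control. Whether the inserted cDNA was of mouse or human origin is not known here. Whether its reads were counted under Wwtr1 was not tested, so the Wwtr1 values may leave the insert out. In TAZ-CAMTA1, whose construct also carries TAZ, Wwtr1 was at 492, 328 and 491 CPM, every library below every control, which did not pass the test (log2 fold change -0.36 ± 0.15, adjusted p = 0.098). Each direction given for the TAZ4A group holds for the libraries so labelled. TAZ-CAMTA1 replicate 2 stood apart: its correlation with the others of its group across genes was at most 0.963, against at least 0.9975 for every other pair within a group, and its share of reads from ribosomal protein genes was 3.86%, the other libraries having 1.76% to 2.04%. Calls and fold changes of the 10 genes are therefore given without it where it changes them, and counts over the other gene lists are given with and without it. Of the endothelial markers all 10 were detected, with a summed level of 11080 to 11320 CPM in control, 7334 to 7582 CPM in the TAZ4A-labelled libraries and 10680 to 12220 CPM in TAZ-CAMTA1. In the fit described further on, 5 of these markers fell in the TAZ4A-labelled libraries against control and none passed in TAZ-CAMTA1 against control (without TAZ-CAMTA1 replicate 2, 10 fell in the former, and 4 rose and 3 fell in the latter). Over all genes 13.2% rose and 11.7% fell in the former, and 16.8% and 15.3% in the latter. Without that library these shares were 28.1% and 30.3%, and 28.5% and 32.3%. The fibroblast and mural markers summed to at most 17.4 CPM, with Lum, Tagln and Rgs5 under 0.5 CPM in every library. The other 5 (Pdgfra, Pdgfrb, Dcn, Col1a1, Acta2) all rose in the TAZ4A-labelled libraries, and Pdgfra, Pdgfrb and Col1a1 rose in TAZ-CAMTA1, with the same counts without TAZ-CAMTA1 replicate 2. Dcn was at 0 reads in control and 2.04 ± 0.0447 CPM in the TAZ4A-labelled libraries. The epithelial markers reached a sum of at most 49.5 CPM with Cdh1 under 0.5 CPM. Among them Krt19 rose from 0.501 CPM in control to 9.05 CPM in the TAZ4A-labelled libraries (log2 fold change 3.25 ± 0.24, adjusted p = 2.4e-05) and 1.31 CPM in TAZ-CAMTA1 (0.79 ± 0.24, adjusted p = 0.035), where the value was 0.48 without TAZ-CAMTA1 replicate 2. The leukocyte marker Ptprc was under 0.5 CPM in every library. Cd68, which other cells also express, was at 488 ± 36.4 CPM in control, 398 ± 3.795 CPM in the TAZ4A-labelled libraries and 563 ± 127 CPM in TAZ-CAMTA1 (mean ± SD, n = 3). The part of these shifts in the results was not tested. In bulk RNA, fewer cells of a type and less RNA per cell cannot be told apart.

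The sequences just upstream of the start sites are shown as background on the genes. Their part in the directions given further on was not tested. RefSeq promoters (GRCm38.p6, which is the mm10 build) were searched for 8 of the 10 genes. Those of Dusp4 and Spry4 were not searched, so nothing is said here on their motifs. Searched on both strands in the 250 bases before the start were the CRE (TGACGTCA), the AP-1 element (TGANTCA), the TEAD element (GGAATG), an ETS element (CCGGAAG), the CArG box of serum response factor and the kappaB element of NF-kB, a set written with these promoters in view. No match of one motif overlapped a match of another. The 4 promoters that held a match are shown 5′ to 3′ on the gene's strand, ending at the base before the start site, with the matches in capitals.
Dusp1 (chr17:26508473-26508722, minus strand): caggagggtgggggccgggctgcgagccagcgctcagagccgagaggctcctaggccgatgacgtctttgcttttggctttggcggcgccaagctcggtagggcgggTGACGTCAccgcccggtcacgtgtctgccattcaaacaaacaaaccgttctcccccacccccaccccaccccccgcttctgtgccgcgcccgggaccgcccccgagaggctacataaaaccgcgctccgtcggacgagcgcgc
Dusp5 (chr19:53528895-53529144, plus strand): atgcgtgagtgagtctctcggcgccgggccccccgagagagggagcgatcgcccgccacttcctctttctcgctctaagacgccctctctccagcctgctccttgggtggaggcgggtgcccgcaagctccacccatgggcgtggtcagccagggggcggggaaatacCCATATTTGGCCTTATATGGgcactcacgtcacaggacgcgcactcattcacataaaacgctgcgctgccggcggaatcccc
Spry1 (chr3:37639697-37639946, plus strand): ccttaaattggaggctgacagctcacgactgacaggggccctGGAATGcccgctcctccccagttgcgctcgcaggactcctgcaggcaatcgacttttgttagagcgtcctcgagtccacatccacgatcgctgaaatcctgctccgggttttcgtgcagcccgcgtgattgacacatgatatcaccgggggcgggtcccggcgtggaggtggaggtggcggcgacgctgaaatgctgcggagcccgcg
Ier3 (chr17:35821463-35821712, plus strand): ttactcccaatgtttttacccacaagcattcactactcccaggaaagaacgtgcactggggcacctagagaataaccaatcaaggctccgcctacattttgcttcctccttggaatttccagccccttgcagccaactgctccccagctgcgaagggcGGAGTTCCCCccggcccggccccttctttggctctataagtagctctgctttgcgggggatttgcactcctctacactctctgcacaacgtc
Dusp1 held a CRE at 143 to 136 bases before its start, a motif found in 1.56% of 32526 promoters. Dusp5 held a pair of adjoining CArG boxes, CCATATTTGG and CCTTATATGG, 82 to 63 bases before the start, and 1.48% of promoters held at least a single CArG box. Spry1 held a TEAD element 208 to 203 bases before its start, which 12.6% of promoters did. Ier3 held a kappaB element, GGAGTTCCCC, at 92 to 83 bases, as did 7.28% of promoters. AP-1 and ETS letters, present in 6.73% and 6.95% of promoters, were not found in these windows. A match is a string of letters and no binding was measured. The set was written with these promoters in view, so the shares are descriptions.

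In control cells the genes covered a wide range of levels per transcript length. Dusp1 stood highest at 558 ± 3.96 TPM (mean ± SD, n = 3, as in all values of this form) and Spry4 lowest at 12.2 ± 0.971 TPM. Between them came Ier3 (218 ± 14.9 TPM), Dusp4 (153 ± 12.7 TPM), Dusp5 (152 ± 7.04 TPM), Dusp6 (120.5 ± 3.77 TPM), Spred1 (64.6 ± 3.70 TPM), Spred2 (62.0 ± 13.2 TPM), Spry1 (50.4 ± 0.896 TPM) and Spry2 (19.9 ± 1.05 TPM). The libraries of Dusp4 and Dusp5 overlapped, as did those of Spred1 with Spred2 and Spred2 with Spry1, and the remaining neighbours in this order did not. In the TAZ4A-labelled libraries, Ier3 (504 ± 25.8 TPM) stood above Dusp1 (442 ± 7.38 TPM) with no overlap, and Spred2 (70.5 ± 3.96 TPM) above Spred1 (55.7 ± 1.61 TPM). In TAZ-CAMTA1, Dusp1 (738 ± 45.4 TPM) and Ier3 (695 ± 90.9 TPM) overlapped, and all others stood at or below 92.8 TPM. Without TAZ-CAMTA1 replicate 2 the group means were 114 TPM for Dusp4, 104 TPM for Dusp5 and 61.6 TPM for Spred2, where all 3 libraries gave 91.6, 92.8 and 44.6 TPM. Spry2 and Spry4 were the lowest of the 10 genes in each group.

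**Figure D1:**
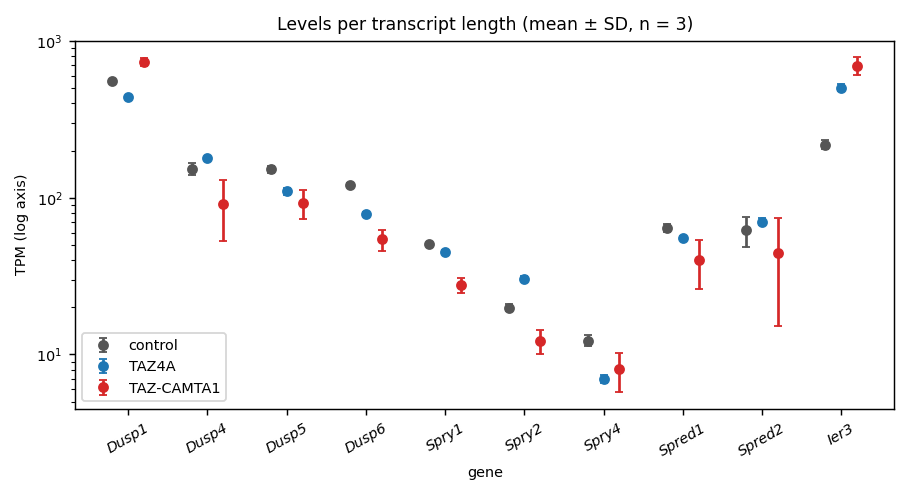
Mean deposited TPM of each gene on a log axis, with the SD over 3 libraries as whiskers, in control (grey), TAZ4A-labelled libraries (blue) and TAZ-CAMTA1 (red). Dusp1 and Ier3 are the only genes of the 10 above 200 TPM in any group, and the wide whisker of Spred2 in TAZ-CAMTA1 (44.6 ± 29.4 TPM) comes with a single low library.

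The groups were then compared gene by gene on deposited CPM, with log2 fold changes on the log2(CPM + 0.5) scale ± SE. The words rose and fell are kept for genes whose adjusted p, from limma with Benjamini-Hochberg adjustment over all 12350 genes, was under 0.05. In the TAZ4A-labelled libraries, 2 of the 10 genes rose against control (Ier3, Spry2) and 4 fell (Dusp1, Dusp5, Dusp6, Spry4). Over all genes 13.2% rose and 11.7% fell there (1630 and 1447 genes, or 1959 and 1108 after bringing all libraries to equal sums). In TAZ-CAMTA1, 2 genes rose against control (Dusp1, Ier3) and 7 fell (Dusp4, Dusp5, Dusp6, Spry1, Spry2, Spry4, Spred1), with a background of 16.8% risen and 15.3% fallen. In TAZ-CAMTA1 against the TAZ4A-labelled libraries, 2 genes were higher (Dusp1, Ier3) and 4 lower (Dusp4, Dusp6, Spry1, Spry2), with 19.4% and 18.5% of all genes. The median log2 fold change of the 10 genes was -0.23, -0.68 and -0.44 in the 3 comparisons, in that order, where the median of all tested genes was -0.01, -0.03 and -0.02. The comparisons share samples, the controls between those against control and the construct libraries with the last. Since the 10 genes were chosen with earlier results of these data known, their counts and medians are descriptions.

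Without TAZ-CAMTA1 replicate 2, the TAZ4A-labelled libraries had 3 genes called higher than control (Dusp4 added) and 6 called lower (Spry1 and Spred1 added), while 28.1% of all genes were called higher and 30.3% lower. TAZ-CAMTA1 then had 2 called higher and 7 called lower than control, the same genes as before, with 28.5% and 32.3% of all genes. Against the TAZ4A-labelled libraries, 3 were called higher (Spry4 added) and 5 lower (Spred1 added), with 30.8% and 32.2% of all genes. The medians of the 10 genes were -0.23, -0.47 and -0.19. Fitting only the 6 libraries of a comparison, which leaves fewer residual degrees of freedom, gave 3 higher and 6 lower in the TAZ4A-labelled libraries, with 28.2% and 30.4% of all genes. It gave 2 higher and 4 lower in TAZ-CAMTA1 against control, with 11.8% and 8.03% of all genes, and there Dusp4 (adjusted p = 0.098), Spry4 (0.051) and Spred1 (0.059) were lost.

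**Figure D2:**
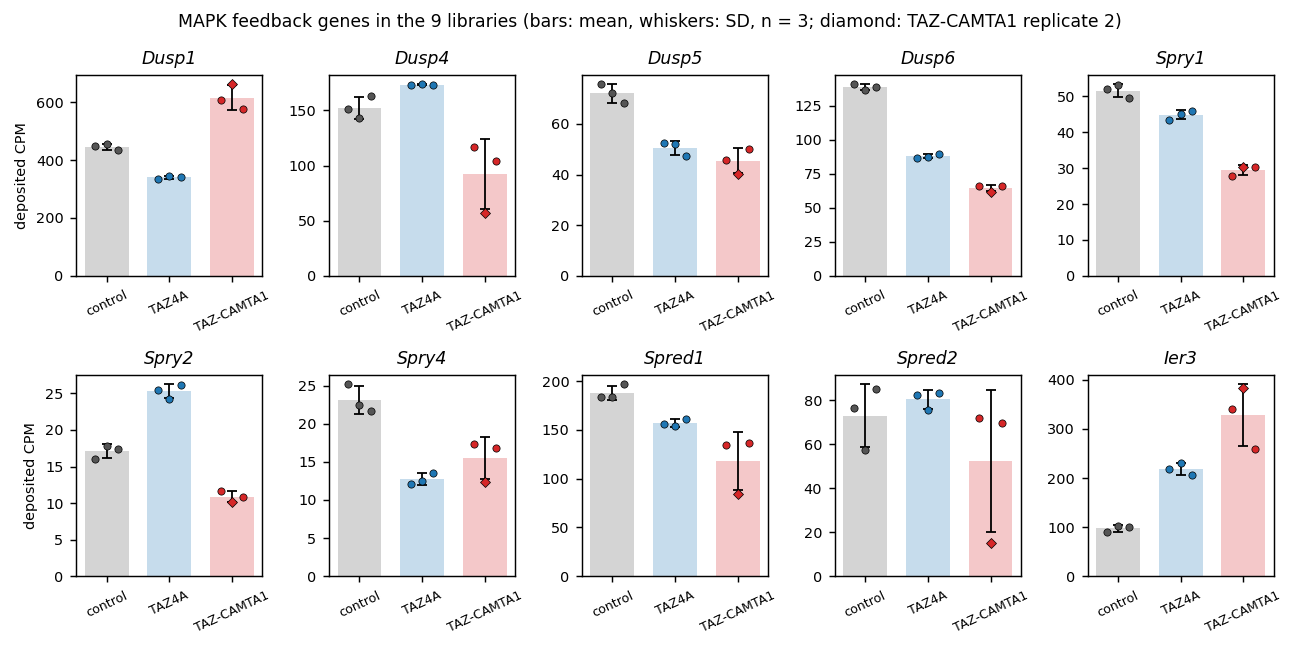
Deposited CPM of the 10 genes in each of the 9 libraries (points), with the group mean (bar) and SD (whisker, n = 3); every axis starts at 0 and has its own range. TAZ-CAMTA1 replicate 2, drawn as a diamond, lies far below the other libraries of its group for Spred2 (15.1 CPM), Dusp4 (56.8 CPM) and Spred1 (84.1 CPM), and Dusp6 falls in separate steps from control to TAZ4A to TAZ-CAMTA1.

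Dusp6 encodes a cytoplasmic phosphatase that acts on ERK and is itself among the standard readouts of ERK activity. It stood at 141, 136 and 139 CPM in control replicates 1 to 3, at 86.8, 87.3 and 89.7 CPM in the TAZ4A-labelled libraries and at 65.8, 61.9 and 66.2 CPM in TAZ-CAMTA1. The 3 groups did not overlap, and in CPM the libraries of each lay close together, TAZ-CAMTA1 replicate 2 included. In TPM that library was lower, the TAZ-CAMTA1 replicates 1 to 3 having 58.5, 44.7 and 59.4 TPM. Dusp6 fell by 0.65 ± 0.06 on the log2 scale in the TAZ4A-labelled libraries (adjusted p = 0.00011) and by 1.10 ± 0.06 in TAZ-CAMTA1 (adjusted p = 8.4e-06). The difference between the latter was -0.44 ± 0.06 (adjusted p = 0.00084). Of the 10 genes it had the smallest adjusted p of TAZ-CAMTA1 against control.

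Dusp5, the nuclear phosphatase specific for ERK whose promoter carried the CArG boxes shown above, stood at 75.7, 72.1 and 68.4 CPM in control. It measured 52.4, 52.0 and 47.5 CPM in the TAZ4A-labelled libraries and 45.8, 40.3 and 50.1 CPM in TAZ-CAMTA1. All 6 construct libraries lay below all 3 controls, while the construct groups overlapped each other. The log2 fold change was -0.50 ± 0.10 in the TAZ4A-labelled libraries (adjusted p = 0.0047, but 0.059 with deposited TPM) and -0.66 ± 0.10 in TAZ-CAMTA1 (adjusted p = 0.001). Between the constructs it was -0.16 (95% interval -0.38 to 0.06, adjusted p = 0.21). Leaving out TAZ-CAMTA1 replicate 2 gave -0.58 in TAZ-CAMTA1 against control and -0.08 between the constructs. An antisense gene, AC137853.2, overlaps Dusp5, and reads of the pair cannot be told apart here since whether strand was used in counting is not given in the sources used here.

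Dusp1 encodes a nuclear phosphatase induced by stress and growth factors that acts on p38 and JNK as well as ERK. Its values were 448, 454 and 434 CPM in control, 334, 346 and 341 CPM in the TAZ4A-labelled libraries and 608, 662 and 576 CPM in TAZ-CAMTA1. The groups did not overlap, with the TAZ4A-labelled libraries below control and TAZ-CAMTA1 above it. Dusp1 fell by 0.39 ± 0.07 on the log2 scale in the former (adjusted p = 0.0045) and rose by 0.46 ± 0.07 in TAZ-CAMTA1 (adjusted p = 0.0017). The constructs differed by 0.85 ± 0.07 (adjusted p = 4.7e-05), and by 0.80 without TAZ-CAMTA1 replicate 2 (adjusted p = 3.0e-10).

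Dusp4, another nuclear phosphatase of MAP kinases, stood at 151, 143 and 163 CPM in control and at 173, 174 and 173 CPM in the TAZ4A-labelled libraries. In TAZ-CAMTA1 it measured 117, 56.8 and 104 CPM, so that replicate 2 held 51.4% of the mean of the other 2 libraries. All 3 TAZ-CAMTA1 libraries lay below, and all 3 labelled TAZ4A above, every control. The fold change in TAZ-CAMTA1 against control was -0.78 ± 0.23 (adjusted p = 0.033), and -0.46 ± 0.06 without replicate 2 (adjusted p = 7.1e-06). Leaving out control replicate 1, 2 or 3 ended this call (adjusted p = 0.087, 0.074 and 0.1), as did leaving out TAZ4A-labelled replicate 1, 2 or 3 (0.056, 0.056 and 0.057) or using TPM (0.069). Against the TAZ4A-labelled libraries the value was -0.97 ± 0.23 (adjusted p = 0.012), and -0.65 without replicate 2. In the TAZ4A-labelled libraries against control it was 0.19 (95% interval -0.34 to 0.72, adjusted p = 0.64), and the same fold change had an adjusted p of 0.0075 when TAZ-CAMTA1 replicate 2 did not enter the shared estimate of spread.

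**Figure D3:**
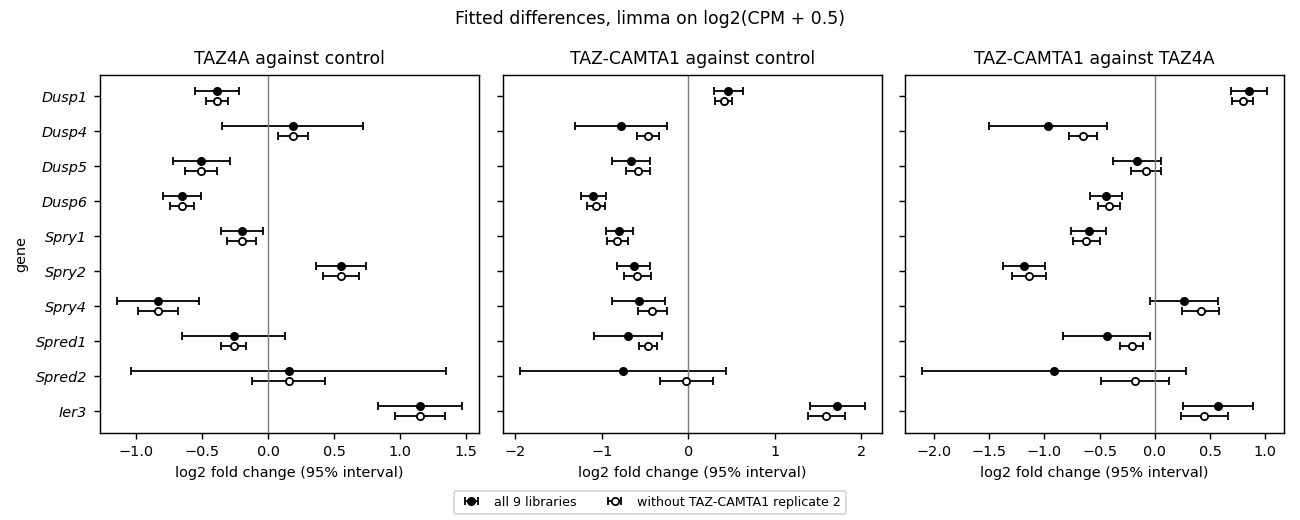
Log2 fold change of each gene with its 95% interval in the 3 comparisons, fitted with all 9 libraries (filled) and without TAZ-CAMTA1 replicate 2 (open). The intervals of Spred2 and Dusp4 narrow most without that library, and the value of Spred2 in TAZ-CAMTA1 against control moves from -0.75 to -0.02. The fitted values of all 10 genes keep their sign in every panel.

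Sprouty proteins are induced by growth factors and restrain the step from receptor to Ras and RAF. Spry1 was measured at 52.1, 53.1 and 49.6 CPM in control, 43.5, 45.2 and 45.9 CPM in the TAZ4A-labelled libraries and 27.9, 30.4 and 30.3 CPM in TAZ-CAMTA1. No groups overlapped, and the TAZ-CAMTA1 libraries were the lowest. Spry1 fell by 0.80 ± 0.07 on the log2 scale in TAZ-CAMTA1 (adjusted p = 7.6e-05). Against the TAZ4A-labelled libraries the value was -0.60 ± 0.07 (adjusted p = 0.00026). The smaller difference of the TAZ4A-labelled libraries from control, -0.20 (95% interval -0.36 to -0.04), did not pass (adjusted p = 0.071). It passed without TAZ-CAMTA1 replicate 2 (adjusted p = 0.0039) and with DESeq2 on recovered reads (0.032). Gm42922 overlaps Spry1 on the opposite strand.

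Spry2, whose product also binds the ubiquitin ligase CBL, was the Sprouty gene that parted by construct. It measured 16.0, 17.8 and 17.4 CPM in control, 25.5, 24.2 and 26.1 CPM in the TAZ4A-labelled libraries and 11.6, 10.1 and 10.8 CPM in TAZ-CAMTA1. Each library labelled TAZ4A lay above, and each TAZ-CAMTA1 library below, all controls. Spry2 rose by 0.55 ± 0.08 in the TAZ4A-labelled libraries (adjusted p = 0.0014) and fell by 0.63 ± 0.08 on the log2 scale in TAZ-CAMTA1 (adjusted p = 0.00067). The constructs differed by -1.18 ± 0.08 (adjusted p = 1.6e-05). That is the largest absolute difference between the constructs among the 10 genes.

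Spry4, which like its relatives acts upstream of RAF, stood at 25.2, 22.5 and 21.7 CPM in control. It measured 12.2, 12.4 and 13.6 CPM in the TAZ4A-labelled libraries and 17.4, 12.3 and 16.9 CPM in TAZ-CAMTA1. All construct libraries lay below all controls, and TAZ-CAMTA1 replicate 2 fell among the TAZ4A-labelled libraries. Spry4 fell by 0.83 ± 0.13 on the log2 scale in the TAZ4A-labelled libraries (adjusted p = 0.0022) and by 0.57 ± 0.13 in TAZ-CAMTA1 (adjusted p = 0.013, but 0.053 without control replicate 1). The value in TAZ-CAMTA1 against control was -0.42 without TAZ-CAMTA1 replicate 2. Between the constructs Spry4 differed by 0.26 (95% interval -0.05 to 0.57, adjusted p = 0.16), and by 0.42 without that library (adjusted p = 0.00027). Gm27369 and Gm27804 overlap it on the opposite strand.

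Spred proteins bring neurofibromin, which switches Ras off, to the membrane. Spred1 measured 184, 183 and 196.5 CPM in control, 156, 153 and 161 CPM in the TAZ4A-labelled libraries and 134, 84.1 and 137 CPM in TAZ-CAMTA1. The groups did not overlap, and TAZ-CAMTA1 replicate 2 held 62.0% of the mean of the other 2. Spred1 fell by 0.70 ± 0.17 on the log2 scale in TAZ-CAMTA1 (adjusted p = 0.015), and the value was -0.47 without that library (adjusted p = 6.3e-07). The call was lost when control replicate 3 was left out (adjusted p = 0.057). The TAZ4A-labelled libraries differed from control by -0.26 ± 0.17 (adjusted p = 0.33, and 9.1e-05 without TAZ-CAMTA1 replicate 2). The constructs differed by -0.44 ± 0.17 (adjusted p = 0.074), and this passed without TAZ-CAMTA1 replicate 1, 2 or 3 (-0.54, -0.21 and -0.56, adjusted p = 0.048, 0.0016 and 0.04).

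Spred2 did not pass in any comparison, with all libraries or without TAZ-CAMTA1 replicate 2. It measured 76.7, 57.2 and 84.9 CPM in control, 82.5, 75.5 and 83.1 CPM in the TAZ4A-labelled libraries and 71.9, 15.1 and 69.8 CPM in TAZ-CAMTA1. Replicate 2 of TAZ-CAMTA1 held 21.4% of the mean of its group's other 2 libraries, and control replicate 2 was the lowest of its group. In TAZ-CAMTA1 against control the difference was -0.75 (95% interval -1.95 to 0.44, adjusted p = 0.3), and -0.02 (95% interval -0.33 to 0.28) without TAZ-CAMTA1 replicate 2. Between the constructs, whose libraries did not overlap, it was -0.91 (95% interval -2.10 to 0.28, adjusted p = 0.2), and -0.18 (95% interval -0.49 to 0.13) without that library. The TAZ4A-labelled libraries differed from control by 0.16 (95% interval -1.04 to 1.35, adjusted p = 0.88), a value of -0.01 without control replicate 2.

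Ier3, an immediate-early gene whose product is an ERK substrate and binding partner and which NF-kB also induces, moved the other way from most of the group. Its level was 90.1, 103 and 101 CPM in control, 219, 230 and 205 CPM in the TAZ4A-labelled libraries and 340, 384 and 259 CPM in TAZ-CAMTA1. The groups did not overlap, and the TAZ-CAMTA1 libraries were spread more widely than the others. Ier3 rose by 1.15 ± 0.14 in the TAZ4A-labelled libraries (adjusted p = 0.00041) and by 1.72 ± 0.14 in TAZ-CAMTA1 (adjusted p = 6.2e-05), the largest absolute changes of the 10 genes in both. TAZ-CAMTA1 stood 0.57 ± 0.14 above the TAZ4A-labelled libraries (adjusted p = 0.012), or 0.53 without TAZ4A replicate 3 (adjusted p = 0.053). Leaving out TAZ-CAMTA1 replicate 2 gave 1.60 in TAZ-CAMTA1 against control and 0.45 between the constructs. The kappaB element of Ier3 is printed above, and its part in these values was not tested.

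The authors' deposited table gives the same sign for every gene and comparison named here and, at a false discovery rate of 0.05, the same calls as the fit above. For Dusp4 in TAZ-CAMTA1 against control the authors' deposited table has a log2 fold change of -0.72 and a false discovery rate of 0.005. For Spred1 in that comparison the authors' deposited table has -0.67 and 0.0019. For Spry1 in TAZ4A against control the authors' deposited table has -0.20 and 0.38, and for Spred2 in TAZ-CAMTA1 against control -0.48 and 0.38.

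Spliced reads gave a second readout of the same libraries, as unique reads across introns inside each gene as a rate within all unique junction reads of the library (RPM). They do not depend on how reads were assigned to genes. A ratio was computed for the 9 genes with at least 20 such reads, a minimum set after the values were seen, and left out Spry1, which had 5. With 3 samples against 3 the two-sided exact permutation test cannot go below 0.1, so none can pass. After Benjamini-Hochberg adjustment over 27 tests the smallest value was 0.142. In TAZ-CAMTA1 replicate 2, 30.6% of junction reads were multiply mapped and so not counted, against 20.8% to 22.2% in the other libraries. Dusp6 held 15.6, 13.3 and 12.9 RPM in control, 8.49, 8.39 and 8.92 RPM in the TAZ4A-labelled libraries and 6.04, 2.83 and 8.05 RPM in TAZ-CAMTA1. The construct libraries lay below control in each case (log2 ratio -0.69 and -1.43, exact permutation p = 0.1 for each). Ier3 held 7.96, 14.7 and 16.2 RPM in control, 41.7, 43.0 and 33.8 RPM in the TAZ4A-labelled libraries and 70.7, 59.5 and 24.2 RPM in TAZ-CAMTA1. Both construct groups lay above control (log2 ratio 1.67 and 1.91, exact permutation p = 0.1 for each), but they overlapped each other (log2 ratio 0.25, exact permutation p = 0.5, and -0.05 without TAZ-CAMTA1 replicate 1).

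Dusp1 was less clear in spliced reads than in gene reads. It held 82.5, 95.9 and 89.7 RPM in control and 82.0, 87.6 and 82.8 RPM in the TAZ4A-labelled libraries, which overlapped (log2 ratio -0.09, exact permutation p = 0.3), against -0.39 in CPM. In TAZ-CAMTA1 it held 144, 119 and 116 RPM, above both other groups. Spry2 had 206 spliced reads in all. Its TAZ4A-labelled libraries (3.50, 4.35 and 4.46 RPM) lay above control (1.25, 3.38 and 1.44 RPM), while TAZ-CAMTA1 (2.01, 0.807 and 1.22 RPM) overlapped control (exact permutation p = 0.5). Spry4, with 48 reads in all, had a log2 ratio of -0.72 between the constructs, opposite in sign to its CPM difference of 0.26, and these groups overlapped (exact permutation p = 0.6). It held 0.849, 0.4045 and 0.425 RPM in the TAZ4A-labelled libraries and 0.530, 0.1345 and 0.456 RPM in TAZ-CAMTA1, where replicate 2 had 1 read. In TAZ-CAMTA1 replicate 2, Spred1 and Spred2 each held 4.44 RPM, where replicates 1 and 3 held 34.6 and 34.3 RPM of Spred1 and 28.3 and 27.2 RPM of Spred2.

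**Figure D4:**
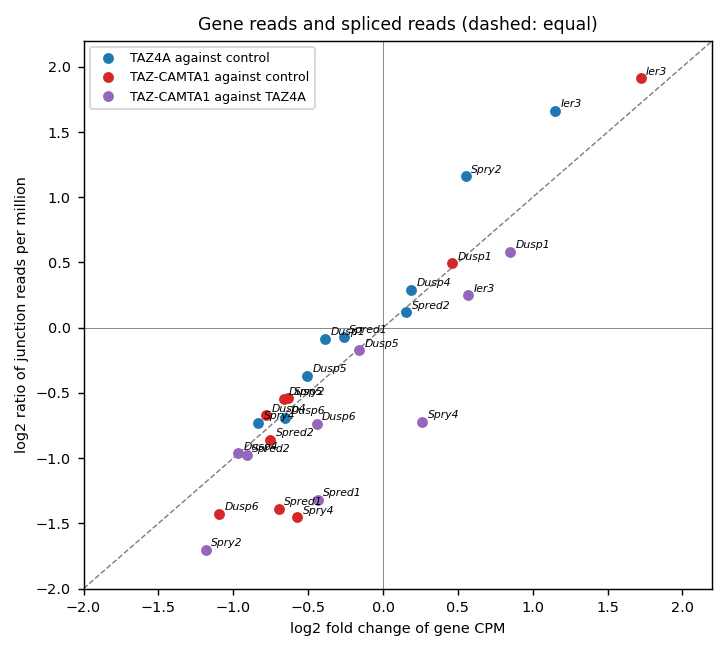
Log2 ratio of spliced reads (RPM) against the fitted log2 fold change of CPM, a point per gene and comparison, with the dashed line marking equal values. Most points lie on the same side of 0 on both axes. Spry4 in TAZ-CAMTA1 against TAZ4A (0.26 and -0.72), with 1 spliced read in TAZ-CAMTA1 replicate 2, does not. Dusp1 in TAZ4A against control (-0.39 and -0.09) lies near 0 on the vertical axis.

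Other genes of the pathway were followed in lists written with earlier results of these data known, so their counts are descriptions. Over all genes, 13.2% rose and 11.7% fell in the TAZ4A-labelled libraries, and 16.8% and 15.3% in TAZ-CAMTA1. Between the constructs 19.4% were higher and 18.5% lower. Without TAZ-CAMTA1 replicate 2 these shares were 28.1% and 30.3%, 28.5% and 32.3%, and 30.8% and 32.2%. Of 6 further MAP kinase phosphatases, 3 rose and 2 fell in the TAZ4A-labelled libraries, 2 rose and 2 fell in TAZ-CAMTA1, and 2 were higher and 1 lower in TAZ-CAMTA1 against the TAZ4A-labelled libraries (3 and 3, 3 and 3, and 2 and 2 without TAZ-CAMTA1 replicate 2). Dusp2, a nuclear phosphatase, measured 28.4 ± 1.47 CPM in control, 25.6 ± 0.319 CPM in the TAZ4A-labelled libraries and 70.8 ± 17.1 CPM in TAZ-CAMTA1 (1.28 ± 0.15 against control, adjusted p = 0.00035). Dusp9, an ERK phosphatase, went from 3.03 ± 0.423 CPM to 6.73 ± 0.492 CPM in the TAZ4A-labelled libraries (adjusted p = 0.0036) and stood at 2.2 ± 0.702 CPM in TAZ-CAMTA1. The difference of Dusp9 in TAZ-CAMTA1 from control was -0.41 ± 0.18 (limma adjusted p = 0.12), and -0.61 without TAZ-CAMTA1 replicate 2 (adjusted p = 0.00092). Dusp16, which acts on JNK, rose by 0.86 ± 0.19 in the TAZ4A-labelled libraries (adjusted p = 0.012). In TAZ-CAMTA1 Dusp16 measured 73.0, 41.9 and 72.5 CPM, against 41.3 ± 2.54 CPM in control (0.55 ± 0.19, limma adjusted p = 0.061). Without TAZ-CAMTA1 replicate 2 that value was 0.81 (adjusted p = 7.2e-09). Dusp8 rose by 0.42 and 0.82 in both construct groups (adjusted p = 0.0043 and 0.00012), and Dusp7 fell by 0.42 on the log2 scale in TAZ-CAMTA1 (adjusted p = 0.0024).

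Of 8 tested genes among the other Sprouty, Spred and receptor-level inhibitors, 2 rose in the TAZ4A-labelled libraries and 1 rose and 1 fell in TAZ-CAMTA1, and 1 was lower in TAZ-CAMTA1 against the TAZ4A-labelled libraries. Without TAZ-CAMTA1 replicate 2 these counts were 4 and 1, 4 and 2, and 3 and 2. Errfi1, an inhibitor of the EGF receptor, rose from 125 ± 3.49 CPM to 193 ± 6.92 CPM in the TAZ4A-labelled libraries and 206 ± 19.95 CPM in TAZ-CAMTA1 (adjusted p = 0.00075 and 0.00039). Lrig1, which promotes loss of EGF family receptors, rose from 111 ± 3.85 CPM to 200 ± 1.63 CPM in the TAZ4A-labelled libraries (adjusted p = 0.0041) and was at 103 ± 23.3 CPM in TAZ-CAMTA1. Rasa1, a protein that switches Ras off, fell by 0.65 ± 0.18 on the log2 scale in TAZ-CAMTA1 (adjusted p = 0.023), a value of -0.42 without TAZ-CAMTA1 replicate 2.

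Of the 18 genes of the cascade itself, 1 rose and 2 fell in the TAZ4A-labelled libraries, 2 rose and 3 fell in TAZ-CAMTA1, and 2 were higher and 2 lower between the constructs. Without TAZ-CAMTA1 replicate 2 the counts were 5 and 6, 5 and 5, and 6 and 6. Over all genes, 13.2% and 11.7%, 16.8% and 15.3%, and 19.4% and 18.5% were called with all libraries. Leaving out TAZ-CAMTA1 replicate 2, the shares were 28.1% and 30.3%, 28.5% and 32.3%, and 30.8% and 32.2%. Mapk3, which encodes an ERK kinase, measured 279 ± 19.3 CPM in control, 202 ± 6.41 CPM in the TAZ4A-labelled libraries and 380 ± 50.7 CPM in TAZ-CAMTA1 (log2 fold change -0.46 and 0.44 against control, adjusted p = 0.012 and 0.013). The docking protein gene Gab1 rose from 4.80 ± 0.0715 CPM to 9.70 ± 0.264 CPM in the TAZ4A-labelled libraries and 9.004 ± 0.844 CPM in TAZ-CAMTA1 (adjusted p = 8.6e-05 and 0.00021). Nras fell by 0.48 ± 0.08 on the log2 scale in TAZ-CAMTA1 (adjusted p = 0.0026), and Shc1 fell by 0.36 ± 0.11 in the TAZ4A-labelled libraries (adjusted p = 0.039).

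Genes used as readouts of ERK output were split. Of 9 tested, 4 rose and 1 fell in the TAZ4A-labelled libraries, and 2 rose and 4 fell in TAZ-CAMTA1. Between the constructs 1 was higher and 4 lower in TAZ-CAMTA1. Leaving out TAZ-CAMTA1 replicate 2 gave 5 and 3, 3 and 4, and 1 and 6. Ccnd1, cyclin D, stood at 1133 ± 33.5 CPM in control and 1956 ± 9.64 CPM in the TAZ4A-labelled libraries (0.79 ± 0.07, adjusted p = 4.4e-05), and at 1280 ± 60.6 CPM in TAZ-CAMTA1. Phlda1 rose from 8.03 ± 0.929 CPM to 16.1 ± 0.721 CPM in the TAZ4A-labelled libraries (adjusted p = 0.0012). Egr1, a transcription factor induced within minutes of ERK activation, measured 225 ± 8.01 CPM in control, 173 ± 1.13 CPM in the TAZ4A-labelled libraries and 588 ± 43.2 CPM in TAZ-CAMTA1 (1.38 ± 0.07 against control, adjusted p = 5.9e-06). Fosl1, an AP-1 member, fell by 0.75 ± 0.15 on the log2 scale in TAZ-CAMTA1 (adjusted p = 0.0058), and Epha4 fell by 1.01 ± 0.28 (adjusted p = 0.024), a value of -0.63 without TAZ-CAMTA1 replicate 2. Myc rose by 0.39 ± 0.10 in the TAZ4A-labelled libraries (adjusted p = 0.021).

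The immediate-early genes are induced by growth factors and stress without new protein synthesis. Of 13, none rose and 9 fell in the TAZ4A-labelled libraries, 5 rose and 5 fell in TAZ-CAMTA1, and 12 were higher and 1 lower in TAZ-CAMTA1 than in the TAZ4A-labelled libraries, where 19.4% and 18.5% of all genes were. Leaving out TAZ-CAMTA1 replicate 2 gave 0 and 11, 5 and 6, and 12 and 1. Their median log2 fold change was -0.69, -0.09 and 0.77 in these comparisons. Fosb had 25.7 ± 2.64 CPM in control, 5.32 ± 0.379 CPM in the TAZ4A-labelled libraries and 8.53 ± 1.55 CPM in TAZ-CAMTA1. Egr2 had 3.59 ± 0.583 CPM, 1.09 ± 0.0489 CPM and 2.34 ± 0.155 CPM in that order of groups. Nr4a1, an orphan nuclear receptor gene, went from 99.4 ± 2.31 CPM to 30 ± 1.11 CPM and 23.8 ± 1.91 CPM (adjusted p = 1.3e-06 and 1.1e-06). Btg2, an antiproliferative gene, went from 124 ± 1.60 CPM to 76.8 ± 2.37 CPM in the TAZ4A-labelled libraries and 238 ± 10.04 CPM in TAZ-CAMTA1. Junb stood at 23.8 ± 3.44 CPM, 23.5 ± 2.04 CPM and 58.6 ± 14.7 CPM, and Ier2 at 77.4 ± 3.71 CPM, 57.0 ± 2.37 CPM and 176 ± 65.8 CPM, in that order of groups. Dusp1 had the same order of groups as Btg2, lowest in the TAZ4A-labelled libraries and highest in TAZ-CAMTA1.

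**Figure D5:**
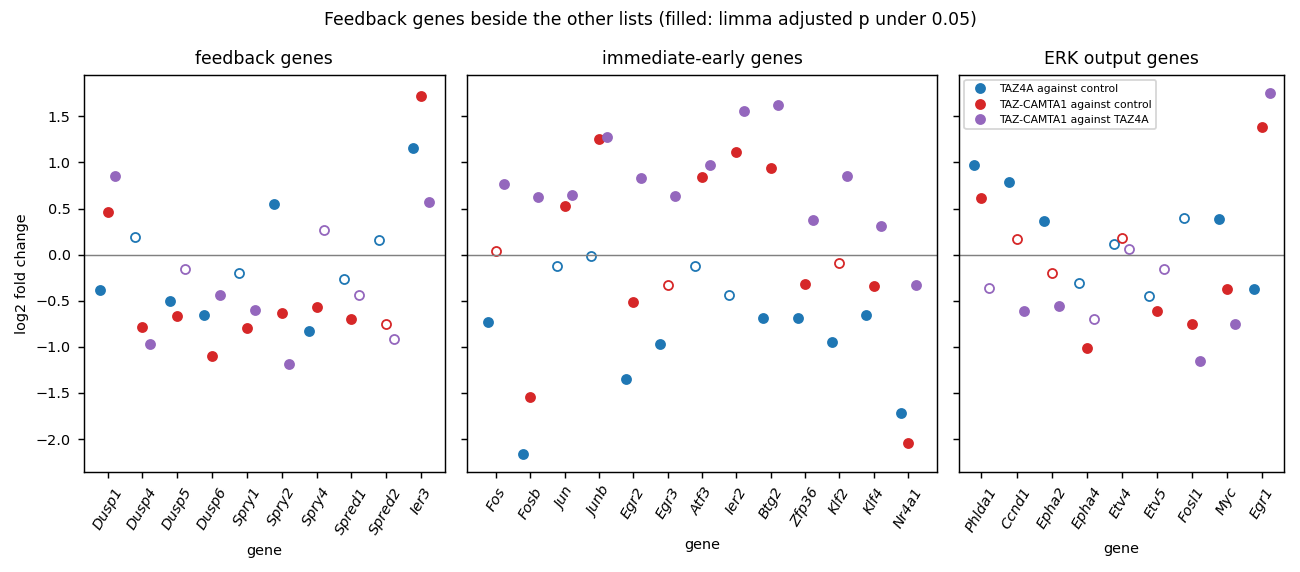
Log2 fold change of the 10 feedback genes, the 13 immediate-early genes and the 9 tested ERK output genes in the 3 comparisons (blue, red and purple), filled where the limma adjusted p is under 0.05. In the middle panel the purple points lie above 0 for every gene except Nr4a1 (-0.33), whereas in the left panel they lie on both sides, from Spry2 (-1.18) to Dusp1 (0.85).

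Upstream of the cascade, 5 of 9 tested growth factor ligand genes rose and 2 fell in the TAZ4A-labelled libraries, 4 rose and 1 fell in TAZ-CAMTA1, and 4 were higher and 3 lower between the constructs (6 and 2, 5 and 2, and 4 and 4 without TAZ-CAMTA1 replicate 2). Pdgfa rose from 19.8 ± 0.854 CPM to 59.7 ± 2.42 CPM and 54.7 ± 3.43 CPM (adjusted p = 1.8e-06 and 5.6e-06). Vegfa, the main endothelial growth factor, rose from 12.2 ± 0.754 CPM to 35.4 ± 0.952 CPM and 35.3 ± 5.57 CPM (adjusted p = 3.4e-05 and 5.6e-05). Ereg, a ligand of the EGF receptor, stood at 28.6 ± 2.27 CPM, 70.6 ± 3.83 CPM and 21.2 ± 4.56 CPM in control, the TAZ4A-labelled libraries and TAZ-CAMTA1, and Btc, another such ligand, at 0.836 ± 0.0907 CPM, 1.496 ± 0.207 CPM and 3.68 ± 0.925 CPM. Pdgfb was higher in TAZ-CAMTA1 than in the TAZ4A-labelled libraries by 1.00 ± 0.07 (adjusted p = 1.7e-05). The receptor Egfr was at most 0.131 CPM in any library, 0 reads in all control libraries.

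Of 13 tested receptor tyrosine kinases, 5 rose and 2 fell in the TAZ4A-labelled libraries, 5 rose and none fell in TAZ-CAMTA1, and 5 were higher and 2 lower between the constructs. Without TAZ-CAMTA1 replicate 2 the counts became 7 and 6, 9 and 0, and 8 and 2. Axl measured 0.328 ± 0.125 CPM in control, 12.4 ± 0.422 CPM in the TAZ4A-labelled libraries and 0.605 ± 0.0492 CPM in TAZ-CAMTA1. Tie1, an endothelial receptor, went from 2337 ± 27.7 CPM to 1116 ± 53.8 CPM in the TAZ4A-labelled libraries and was at 2230 ± 68.6 CPM in TAZ-CAMTA1. Fgfr1, through which FGF induces Sprouty genes in many tissues, was higher in TAZ-CAMTA1 (119.98 ± 14.8 CPM) than in the TAZ4A-labelled libraries (49.6 ± 2.02 CPM, adjusted p = 2.9e-05). Met stood at 68.4 ± 2.60 CPM in the TAZ4A-labelled libraries and 27.9 ± 9.09 CPM in TAZ-CAMTA1 (adjusted p = 0.0019). Pdgfra, also in the list of fibroblast and mural markers, rose in both construct groups, to 9.03 ± 0.444 CPM and 7.19 ± 2.36 CPM from 2.95 ± 0.0821 CPM. In TAZ-CAMTA1 Pdgfrb rose by 0.92 ± 0.12 and Flt4 by 0.98 ± 0.16. Of 9 tested genes of the JNK and p38 kinases and the MAP kinase kinases that activate them, none rose and 2 fell in the TAZ4A-labelled libraries, 1 rose and 2 fell in TAZ-CAMTA1, and 2 were higher and 2 lower between the constructs. Without TAZ-CAMTA1 replicate 2 these were 0 and 3, 3 and 6, and 4 and 3. Map2k6, which activates p38, fell by 0.60 ± 0.08 on the log2 scale in the TAZ4A-labelled libraries (adjusted p = 0.0006), and Mapk11, a p38 kinase, rose by 0.60 ± 0.13 in TAZ-CAMTA1 (adjusted p = 0.0086). Mapk14, another p38 kinase, fell in both construct groups (log2 fold change -0.35 ± 0.08 and -0.37 ± 0.08, adjusted p = 0.0096 and 0.0066). Map2k3 fell in TAZ-CAMTA1 (-0.35 ± 0.08, adjusted p = 0.011).

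Genes with the most similar pattern were sought for the 9 feedback genes called in at least 1 comparison, which leaves out Spred2, among 9800 tested genes with a mean of at least 5 CPM, as the smallest root mean square difference of log2(CPM + 0.5), centred on the control mean, over the 9 libraries, which include the library that stands apart. Nearest to Dusp1 were H1f0 (0.0499) and Cdc42ep1 (0.0535), and nearest to Dusp5 was Ap3d1 (0.0393). Hsph1 was nearest to Dusp6 (0.0604), at 286, 183 and 129 CPM in the means of control, the TAZ4A-labelled libraries and TAZ-CAMTA1. Spry2 lay nearest to Ddit4l (0.0695) and Aen (0.0821), and Spry4 to Aplp2 (0.0785) and She (0.0885). Spry1 had Txndc11 (0.0634) and Dis3l (0.0648), Dusp4 had Zzz3 (0.0648) and Ect2 (0.0691), and Spred1 had Dna2 (0.0441) and Hnrnph2 (0.0459). The nearest to Ier3 were farther off, Rnase4 at 0.162 and Asrgl1 at 0.178. No feedback gene was a candidate here, so the distances between them are not part of this search.

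On the mouse assembly GRCm38.p6 Dusp1 and Ier3 are both on chromosome 17, at 26505591 to 26508472 and at 35821713 to 35822911, and the other 8 genes are each on a chromosome of their own. Dusp4 lies on chromosome 8 (34807610 to 34819894), Dusp5 on chromosome 19 (53529145 to 53541809) and Dusp6 on chromosome 10 (99263231 to 99267489). Spry1 is on chromosome 3 (37639947 to 37644599), Spry2 on chromosome 14 (105891947 to 105896819) and Spry4 on chromosome 18 (38586247 to 38601347). Spred1 covers 61209 bases of chromosome 2 (117121071 to 117182279) and Spred2 covers 99585 bases of chromosome 11 (19924442 to 20024026). They are the longest of the 10 genes and, with Dusp4, those lowest in TAZ-CAMTA1 replicate 2 against the other libraries of its group, and the part of gene length in this was not tested.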

How the data were processed

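RNA of 9 MS1 samples was extracted on columns, DNase treated and sequenced as poly-A libraries of a stranded kit on an Illumina HiSeq, per the labels' protocols. The submitters' processing notes name bcl2fastq, FastQC, STAR, featureCounts, edgeR and the build mm10. Their versions and options are not given in the sources used here. The gene values are a deposited signal that the authors call CPM, reads divided by a scaled library size, with sums of 976997 to 1028367 per library. Every value was a whole multiple of a single read's value (100.0% within 0.01), so whole reads were recovered, and the count tests ran on them. The deposited TPM, which the authors scaled for transcript length, served for levels between genes. From the authors' deposited comparison table come the log2 values and adjusted p-values credited to them. The deposited junction files hold counts of reads across introns, per the labels from STAR, 6410070 to 9889541 unique per library.

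Tested were the 12350 of 17565 genes that reached 0.5 CPM in 3 or more libraries, on log2(CPM + 0.5) with limma 3.58.1 in R 4.3.3 (trend and robust), all 9 libraries in a single fit with 6 residual degrees of freedom, Benjamini-Hochberg adjustment and a threshold of 0.05. Fold changes on this scale understate those of low genes. The method was tested on simulated data in which every library had the same spread, so that test does not cover a library that stands apart. The design assumed CPM. The unit was entered as signal because the sums differ, and the test stayed as planned. Also tried were a pseudocount of 0.1 or 2, a minimum of 2 CPM or none, other scalings, TPM, the GENCODE vM4 gene table, the compared libraries alone, a replicate block, library weights, edgeR 4.0.16, DESeq2 1.42.0 and leaving out each library. The members and lists were chosen with earlier results of these data known. All 10 members are named, and of each other list up to 3 called genes with the largest absolute fold change in each comparison. A marker gene of the lists is not reported here.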

Additional observations from a re-analysis of the deposited data

Results flagged for a closer look

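For 3 of the 10 genes the constructs lay on opposite sides of the same controls, with no library of either overlapping them. They were picked by that separation and by passing TAZ-CAMTA1 against the libraries labelled TAZ4A, so these p-values are no separate support. Of all genes, 19.4% were higher and 18.5% lower between the constructs. The share of all genes separated in this way was not counted. Spry2 differed by -1.18 (limma adjusted p = 1.6e-05), Dusp1 by 0.85 (adjusted p = 4.7e-05) and Dusp4 by -0.97 (adjusted p = 0.012). The higher level of Dusp4 in the libraries labelled TAZ4A did not itself pass (0.19, adjusted p = 0.64), and without TAZ-CAMTA1 replicate 2 the difference between the constructs was -0.65 (adjusted p = 1.2e-07).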

How the results depend on the processing

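Of the fold changes of the 10 genes under other settings, 629 kept their direction and their side of the threshold, 16 passed newly, 14 no longer passed and 1 turned direction (Spred2 in TAZ4A against control, -0.007 without control replicate 2, with a range of -0.007 to 0.275 without a single library). Of the junction ratios, which no setting can carry past the threshold, 212 kept their direction and 4 turned: Ier3 between the constructs without TAZ-CAMTA1 replicate 1 (-0.0509 to 0.7235 over the libraries left out), Spred1 in TAZ4A against control without control replicate 3 (-0.1318 to 0.0444), and Spred2 in TAZ4A against control without control replicate 2 (-0.1081 to 0.2925) and in TAZ-CAMTA1 against control without TAZ-CAMTA1 replicate 2 (-1.3146 to 0.0213). The number of genes called in TAZ4A against control, 3077, was 7233 with only the 6 compared libraries and 7432 with library quality weights, and 2101 to 7206 without a single library, the highest without TAZ-CAMTA1 replicate 2. For TAZ-CAMTA1 against control (3966) it was 2445, 7255 and 2626 to 7516, and for TAZ-CAMTA1 against TAZ4A (4684) it was 8272 with weights and 3236 to 7779. Members called lower in TAZ-CAMTA1 against control numbered 4 in place of 7 with only the 6 compared libraries and 5 to 7 without a library. Those higher in TAZ-CAMTA1 against TAZ4A numbered 1 to 3 in place of 2, the 1 without TAZ4A replicate 3. With TPM the median of all genes in TAZ-CAMTA1 against TAZ4A was -0.126 in place of -0.020. Same-numbered samples did not all deviate together (correlations -0.120 to 0.523, own number best in 13 of 18 cases), so the numbers were not taken as pairs. With the replicate block 2890, 3881 and 4619 genes were called, and no call of a member changed. The library weight of TAZ-CAMTA1 replicate 2 was 0.029, that of the others at least 1.003. Spliced reads over the 9 libraries were fewest for Spry1 (5), Spry4 (48) and Spry2 (206), which limits the precision of their ratios.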
